A study of Mus musculus with 4 samples.

Results

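The Hox genes are the 39 genes named Hoxa, Hoxb, Hoxc or Hoxd with a number from 1 to 13, and they were chosen by symbol, out of 20938 genes that could be named on the exon blocks of the deposited matching. They encode homeodomain transcription factors and lie in 4 clusters, Hoxa on chromosome 6 (11 genes), Hoxb on chromosome 11 (10 genes), Hoxc on chromosome 15 (9 genes) and Hoxd on chromosome 2 (9 genes) of the mouse genome mm9. Within a cluster, the number of a gene follows its place, and genes with the same number in different clusters are paralogs that descend from one ancestral gene. It is known of the embryo that genes with low numbers are used from the head end backwards and genes with high numbers only towards the tail, a correspondence called colinearity, and that the intestine keeps part of this order along its length.

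The material was total small intestine and total colon of C57BL/6 mice aged 9 to 10 weeks, with no treatment, frozen in liquid nitrogen. The methods of the study describe the pieces taken as jejunum and distal colon and 6 mice in all, and how many mice entered each library is not given in the sources used here. For each tissue there was 1 library from polyadenylated RNA, reverse transcribed with an oligo-dT primer and fragmented as cDNA, called the cDNA library here, which does not keep the strand. A further library per tissue was made with the SOLiD Whole Transcriptome Analysis Kit, labelled as ribosomal RNA depleted and called the rRNA-depleted library here, which keeps the strand. The methods of the study describe polyadenylated RNA for this protocol too, but the totals of reads given there for its RNA-fragmented libraries are larger than those in the files, so whether these are the libraries described is not known. The tissues of the study are described as taken from shared animals. With 1 library per tissue and protocol replicate error within a protocol is unknown, the tissues were compared without a test, and all intervals below are at the 95% level and cover counting error only.

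Uniquely placed reads numbered 22484041 in the cDNA small intestine library and 24798934 in the cDNA colon library. They numbered 2035386 and 3478387 in the rRNA-depleted libraries of small intestine and colon, so low Hox levels were measured less precisely there. Levels are given as RPKM, the reads per 1000 bases of exon block and 1000000 uniquely placed reads, which allows genes of different length to be compared. Markers of the labelled tissues were in place, since 5 of 5 small intestine markers were lower and 4 of 4 colon markers higher in colon by both protocols. The pancreatic acinar markers did not follow the tissue labels, with a summed level 38.5 times higher in colon than in small intestine in the cDNA libraries and 6.56 times lower in colon in the rRNA-depleted ones. The ileal gene Fabp6 had 10312 reads in cDNA small intestine and 245 in rRNA-depleted small intestine, so its transcript was present in tissue described as jejunum. The other ileal gene measured, Slc10a2, was higher in colon, with 486 and 1173 reads by cDNA and 163 and 576 by the rRNA-depleted protocol.

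All 39 members hold the homeodomain, whose recognition helix reads the DNA, and each had exactly 1 match to codons of its invariant core. The 30 bases from the start of that core are shown for members on which the results turn, read from mm9 on the coding strand, with capitals where a base differs from Hoxa13. They are shown so that the members can be compared in the part that touches DNA.

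Hoxa13: tggttccagaacaggagggtcaaagagaaa
Hoxb13: tggttTcagaacCgCCgggtcaaGgagaaG
Hoxd13: tggttTcagaaTCgAagggtGaaGgaCaaG
Hoxa10: tggttTcagaaTCgCaggAtGaaaCTgaaG
Hoxa9: tggttccagaacCgCaggAtGaaaATgaaG
Hoxb9: tggttTcagaacCggCggAtGaaaATgaaG
Hoxc8: tggttccagaaTCgAaggAtGaaGTGgaaa

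These stretches lie at chr6:52208936-52208965 (minus strand), chr11:96057475-96057504 (plus), chr2:74508128-74508157 (plus), chr6:52182562-52182591 (minus), chr6:52174276-52174305 (minus), chr11:96136114-96136143 (plus) and chr15:102823143-102823172 (plus) in the order shown. Hoxb13 differed from Hoxa13 at 6 of the 30 bases and Hoxd13 at 8, while the paralogs Hoxa9 and Hoxb9 differed from each other at 3. In the color code of SOLiD, where each color stands for a pair of neighbouring bases, Hoxa9 and Hoxb9 differed by 5 colors there, and the matching had allowed 3 color mismatches. Over all Hox exon blocks, 0.932% of the windows of 35 colors lay within 3 color mismatches of another Hox gene. This share was highest in Hoxa6 with 7.13%, and no such window was found in 15 members, among them Hoxa10, Hoxa11, Hoxa13, Hoxb13, Hoxd10, Hoxd12 and Hoxd13.

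The Hox genes as a set were far more abundant in colon. They collected 450 reads in the cDNA small intestine library and 6549 in the cDNA colon library, a summed level of 9.91 and 134.2 RPKM. In the rRNA-depleted libraries the reads numbered 82 and 1393, and the summed levels were 19.3 and 181.2 RPKM. The summed level was 13.5 times higher in colon by cDNA and 9.37 times higher by the rRNA-depleted protocol. Since these are whole tissues, more cells that express a Hox gene and more RNA per cell cannot be told apart.

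A member was scored as present above 0.01 RPKM if its reads began at no fewer than 2 different places, the strand counted with the base. By this rule 23 of 39 members were present in cDNA small intestine and 35 in cDNA colon. In the rRNA-depleted libraries 14 members were present in small intestine and 27 in colon. In at least 1 library of a protocol 35 members were present by cDNA and 31 by the rRNA-depleted protocol, where 16522 and 15118 of all 20938 genes were. For single libraries the share of all genes was not computed. Presence also follows depth, with 2035386 and 3478387 uniquely placed reads in rRNA-depleted small intestine and colon. Hoxc12 and Hoxd1 had no read in any library, which allows up to 3 reads in each, and 4 members in all were present in no library. In all, 9 members had fewer than 10 reads in every library, 6 of them in the Hoxc cluster, and the other 30 are described one by one.

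**Figure D1:**
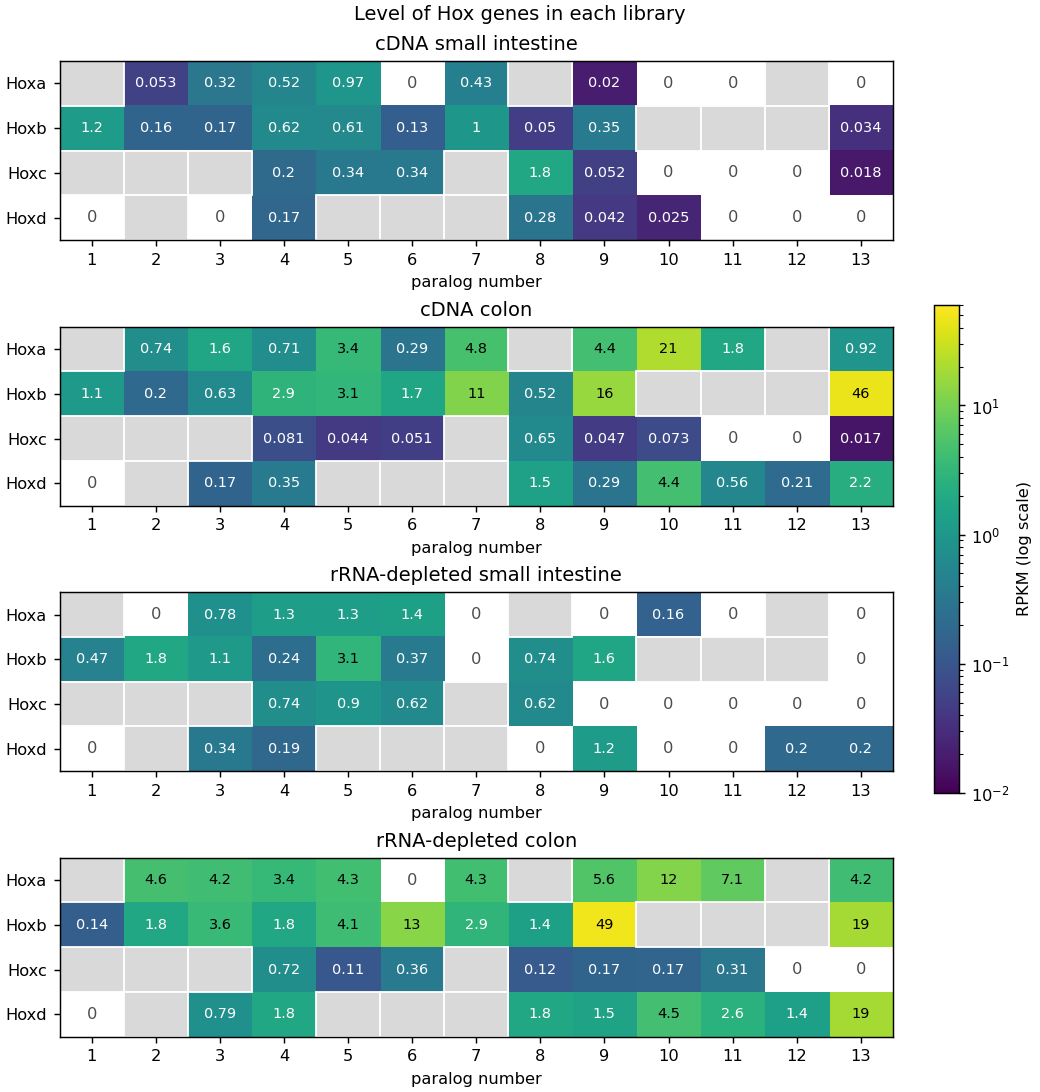
Level of Hox genes in RPKM (color, log scale, with the value written in the cell) by cluster (rows) and paralog number (columns) in the 4 libraries. Grey cells are paralog numbers that a cluster lacks or that are not shown, and white cells have no read. The bright cells of the colon panels lie mainly at numbers 9 to 13 of Hoxa, Hoxb and Hoxd, where most small intestine cells are dark or empty. Exceptions are Hoxb9 and Hoxd9 in rRNA-depleted small intestine, with 1.64 and 1.17 RPKM. The Hoxc row is the darkest in colon.

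The comparison between tissues was made with both call rules on all genes. By the 3-fold rule of the study, in which a penalty of 1 RPKM is added to the divisor, 7 of the 35 members present in a cDNA library were called higher in colon, where 3.21% of the 16522 genes present in one were called in this direction. These were Hoxa7, Hoxa9, Hoxa10, Hoxb7, Hoxb9, Hoxb13 and Hoxd10. By the rRNA-depleted protocol 11 of 31 members were called, against 6.6% of 15118 genes, namely Hoxa2, Hoxa7, Hoxa9, Hoxa10, Hoxa11, Hoxa13, Hoxb6, Hoxb9, Hoxb13, Hoxd10 and Hoxd13. By both protocols 6 members were called, and the share of all genes called by both under this rule was not computed. No member was called higher in small intestine, where 2.72% and 3.7% of the genes present were called. Such a call needs at least 3 RPKM in small intestine, so these shares are no reference for the low Hox levels there. By cDNA the highest member in small intestine was Hoxc8 with 1.77 RPKM, so no call was possible. By the rRNA-depleted protocol only Hoxb5 reached that level, with 3.11 RPKM in small intestine and 4.09 in colon.

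With a penalty of 0.1 RPKM 19 and 20 members were called higher in colon by cDNA and by the rRNA-depleted protocol. The share of all genes called at that penalty was not computed, so these counts have no reference. Since the penalty of 1 RPKM hides differences below it, a second rule asked whether the counting interval of the plain ratio excluded 1. By cDNA 23 of the 36 members with a read lay above 1, that is higher in colon, against 46.2% of the 17253 genes with a read, and 3 members lay below 1, against 20.9%. By the rRNA-depleted protocol 20 of 36 members lay above 1, against 33.7% of 16214 genes, and 0 below 1, against 17%. The 23 and 20 members shared 19 of the 35 members with a read by both protocols, where 24.4% of 15944 genes were above 1 by both, and 0 members lay below 1 by both, against 9.5% of genes. Hoxd4, all of whose reads lay in blocks shared with Hoxd3, was the member above 1 by the rRNA-depleted protocol alone, which turned round with at most 1 color mismatch. No member lay on opposite sides of 1 in the protocols. Of the 17 members with a read in all 4 libraries, 16 had a ratio on the same side of 1 by both protocols, and the exception, Hoxb2, had ratios of 1.21 and 0.975 whose intervals both include 1. The shares of all genes for these counts were not computed, and many members had few reads and wide intervals. Over members with reads in both tissues, the median log2 of the tissue ratio was 2.23 for 27 Hox genes by cDNA, beside 0.41 for all genes, and 1.40 for 21 Hox genes by the rRNA-depleted protocol, beside 0.34 for all genes. Scaling to median-of-ratios size factors in place of uniquely placed reads would lower every colon ratio by these 0.41 and 0.34 on the log2 scale.

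**Figure D2:**
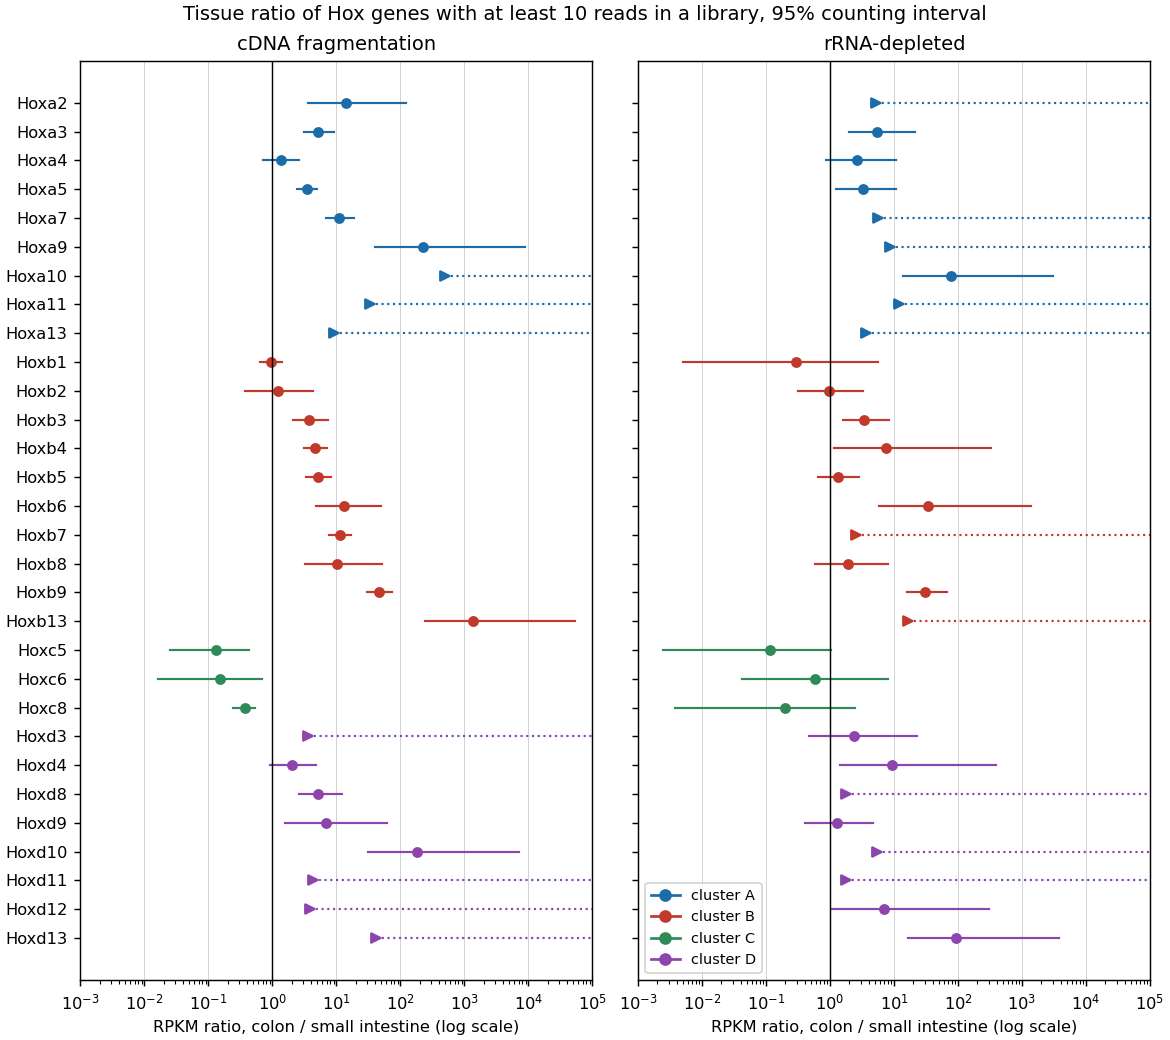
RPKM ratio of colon to small intestine (log axis) with its 95% counting interval for the 30 Hox genes with at least 10 reads in 1 library, in the cDNA libraries (left) and the rRNA-depleted libraries (right), colored by cluster. Triangles with dotted lines mark the ratio to 3 reads where small intestine had no read. The Hoxa, Hoxb and Hoxd genes lie mostly right of 1 and the 3 Hoxc genes left of 1. Furthest right lie Hoxb13 and Hoxa10 by cDNA and Hoxd13 and Hoxa10 by the rRNA-depleted protocol. The posterior gene Hoxd9 lies left of the central gene Hoxb6 by both protocols. The triangles of Hoxd11 and Hoxa13 lie left of it too, but they are lower bounds and do not order these genes against Hoxb6.

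The posterior paralogs stood apart from the others in their summed level. Paralogs 1-3 (8 genes), which pattern the hindbrain in the embryo, had a summed level of 1.92 RPKM in cDNA small intestine and 4.59 in cDNA colon, a ratio of 2.40. Paralogs 4-8 (15 genes), the central group, went from 7.46 to 31.5 RPKM, a ratio of 4.23. Paralogs 9-13 (16 genes), the posterior group that patterns the hind part of the body, went from 0.537 to 98.1 RPKM, a ratio of 183. The rRNA-depleted libraries gave 3.43, 3.44 and 37.6 in the same order. The size of the posterior ratio depended on the count used, and it was 463.5 by cDNA with at most 1 color mismatch and 22.2 by the rRNA-depleted protocol with start points in place of reads. The posterior group therefore made up 5.42% of the summed Hox level in cDNA small intestine and 73.1% in cDNA colon, and 17.4% and 69.6% in the rRNA-depleted libraries. In cDNA colon Hoxb13, Hoxa10 and Hoxb9 alone made up 61.9% of it, and Hoxb9 gave 21 of the 29 posterior reads in cDNA small intestine. Single numbers did not rise in order, with summed cDNA ratios of 11.2 for number 7 and 1.26 for number 8. The value for number 8 rested on Hoxc8, which gave 1.77 of its 2.10 RPKM in cDNA small intestine and was lower in colon. Hoxb8 and Hoxd8 had cDNA ratios of 10.3 and 5.24. Of the members with a read by both protocols, the interval of the ratio lay above 1 by both for 3 of 7 of paralogs 1-3, 6 of 15 of paralogs 4-8 and 10 of 13 of paralogs 9-13, beside the 24.4% of genes. The ratio of paralogs 1-3 by cDNA rested on Hoxb1, whose reads are described below, and was 4.72 without it, which leaves no step between the first 2 groups.

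**Figure D3:**
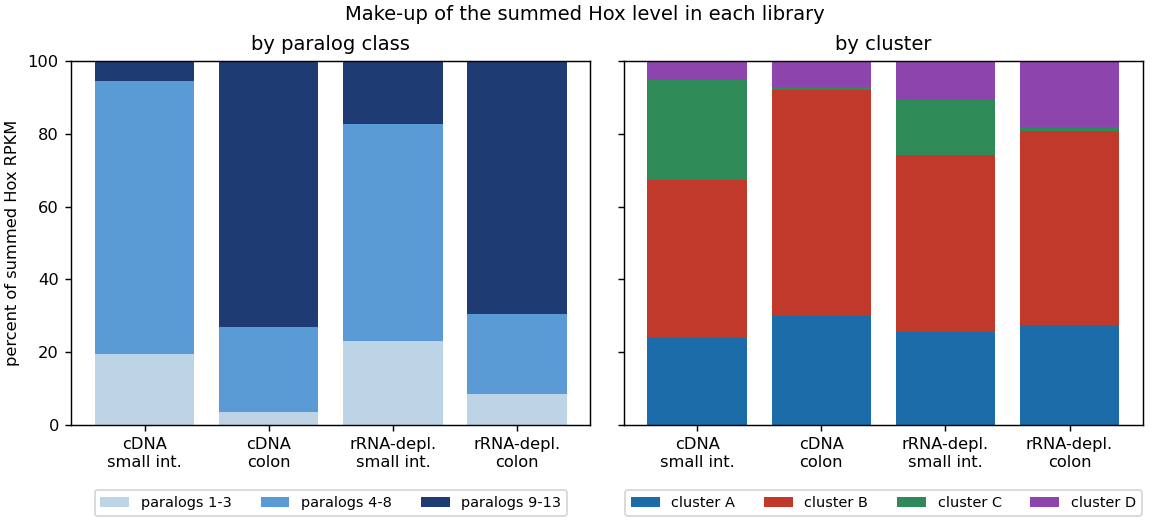
Percent of the summed Hox RPKM contributed by each paralog class (left) and each cluster (right) in the 4 libraries. Paralogs 9-13 fill 5.42% and 17.4% of the small intestine bars and 73.1% and 69.6% of the colon bars, and cluster C shrinks from 27.4% to 0.715% in the cDNA libraries.

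The posterior Hoxb genes led the colon libraries. Hoxb13, the last gene of its cluster (chr11:96055675-96057913), had 1 read in cDNA small intestine and 1498 reads in cDNA colon, or 0.0339 and 46.0 RPKM, the highest Hox level there. It had 0 and 86 reads in the rRNA-depleted libraries, with 18.8 RPKM in colon. The cDNA ratio was 1358 with a lower bound of 243, since a single small intestine read sets it, and the rRNA-depleted level was at least 16.8-fold higher in colon when small intestine was set to 3 reads. Hoxb9 (chr11:96132644-96137907), which lies between Hoxb13 and the central genes, was the posterior member best detected in small intestine, with 21 reads against 1053 by cDNA and 9 against 463 by the rRNA-depleted protocol. Its level was 0.346 RPKM in small intestine and 15.7 in colon by cDNA, a ratio of 45.5 (29.6 to 73.8), and 1.64 and 49.3 RPKM by the rRNA-depleted protocol, a ratio of 30.1 (15.7 to 66.2). Only 6 of the 21 cDNA small intestine reads had at most 1 mismatch, and with such reads alone the cDNA ratio was 93.2 (42.6 to 254.9). With start points in place of reads the rRNA-depleted ratio was 13.1. The order of these neighbours differed by protocol. Hoxb13 stood above Hoxb9 in cDNA colon (43.7 to 48.4 against 14.8 to 16.7 RPKM) and below it in rRNA-depleted colon (15.1 to 23.3 against 44.9 to 54.0 RPKM).

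Of the posterior Hoxa genes, Hoxa10 (chr6:52181198-52190853), known for its part in the urogenital tract and limb, had 0 reads in cDNA small intestine and 1662 in cDNA colon, the largest number of reads of any member. Its colon level of 21.3 RPKM was at least 502-fold higher than that of 3 reads in small intestine. The rRNA-depleted libraries held 1 and 132 reads, a ratio of 77.2 with a lower bound of 13.6. With at most 1 mismatch this ratio was 48.2 with a lower bound of 8.42. Hoxa9, a regulator of blood progenitors as well as of the body axis, had 1 and 248 reads by cDNA (0.0196 and 4.40 RPKM) and 0 and 44 reads by the rRNA-depleted protocol. Hoxa13, which the embryonic hindgut requires, was low by comparison, with 0 and 30 reads by cDNA and 0 and 19 by the rRNA-depleted protocol, or 0.925 and 4.18 RPKM in colon. These genes were thus all but absent from the small intestine libraries at a depth where 3 reads correspond to between 0.0425 and 0.102 RPKM by cDNA.

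Hoxa11, which lies between Hoxa10 and Hoxa13 (chr6:52192105-52196199), had no read in small intestine and 111 and 62 reads in colon by cDNA and the rRNA-depleted protocol. Most of the colon reads whose strand is known did not come from its own strand. In rRNA-depleted colon only 25 of 62 reads were sense, 40.3% (Wilson interval 29.02 to 52.75%), where 95.1% of all Hox reads and 98.5% of the reads of all genes were sense. The antisense reads filled the first exon block, with 0 sense and 13 antisense reads, and the second, with 5 and 24, while the last block had 20 sense reads and 0 antisense. Counting sense reads only, the level of Hoxa11 in rRNA-depleted colon was 2.86 instead of 7.10 RPKM, at least 4.88-fold higher than 3 reads in small intestine, and it no longer met the 3-fold rule. The cDNA reads of Hoxa11 cannot be divided in this way and may come from either strand. The neighbouring transcript on the plus strand, Hoxa11as (chr6:52196314-52199768), had 0 and 718 reads by cDNA and 0 and 82 by the rRNA-depleted protocol, of which 81 were in its own sense, so it exceeded Hoxa11 at 27.6 against 1.78 RPKM in cDNA colon. Hoxa10 had 17 antisense reads of 132 in rRNA-depleted colon, all in its last block, and by sense reads alone its level was at least 22.4-fold higher than 3 reads in small intestine.

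**Figure D4:**
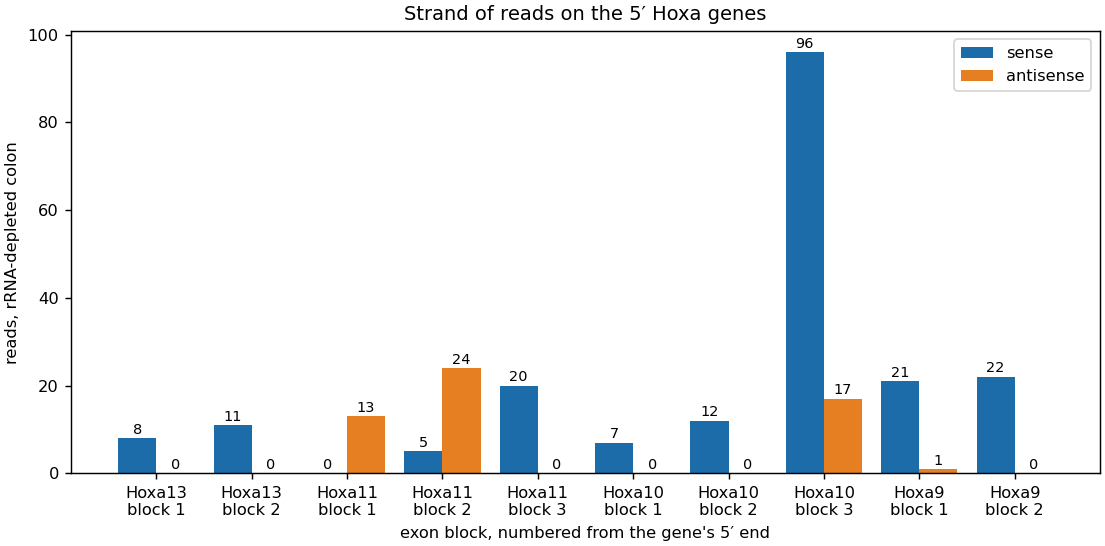
Reads on the sense strand (blue) and the antisense strand (orange) of each exon block of Hoxa13, Hoxa11, Hoxa10 and Hoxa9 in the rRNA-depleted colon library, blocks numbered from the 5′ end of the gene. The first blocks of Hoxa11 hold 13 and 24 antisense reads with 0 and 5 sense reads, its last block 20 sense reads, and the last block of Hoxa10 96 sense and 17 antisense reads.

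In the Hoxd cluster the posterior genes also carried the colon signal, at lower levels by cDNA, with a summed colon level of 7.72 RPKM beside 28.45 for posterior Hoxa, but not by the rRNA-depleted protocol, with 28.5 beside 28.9 RPKM. The summed cDNA ratio of this cluster was 18.6, but 47.2 with at most 1 mismatch and 33.7 without the densest 200 bases of each member. By the rRNA-depleted protocol it was 15.7, and 25.8 with at most 1 mismatch. Hoxd10 had 1 and 197 reads by cDNA and 0 and 28 by the rRNA-depleted protocol, with colon levels of 4.44 and 4.50 RPKM. Hoxd13 (chr2:74506367-74509655), a gene of the digits and of the anal sphincter, had 0 and 137 reads by cDNA but 1 and 160 by the rRNA-depleted protocol, although that colon library is smaller. Its colon level was 2.23 RPKM by cDNA and 18.5 RPKM by the rRNA-depleted protocol, at least 41.4-fold higher than 3 small intestine reads and 93.6 times higher (lower bound 16.6) respectively. Hoxd11 had 0 and 14 reads by cDNA and 0 and 9 by the rRNA-depleted protocol, and without its densest 200 bases it kept 0 and 1 cDNA reads, which are no basis for a call. Hoxd12 had 0 and 13, and 1 and 12. Hoxd9 had 2 and 15 reads by cDNA, a ratio of 6.80 (1.58 to 61.3), and 5 and 11 by the rRNA-depleted protocol, a ratio of 1.29 (0.412 to 4.73) that does not exclude 1. Its cDNA interval included 1 with at most 1 mismatch (0 and 5 reads, lower end 0.836) and without its densest 200 bases (0.84 to 38.8). The Hoxd genes nearest the 5′ end of the cluster were therefore seen in colon with few or no small intestine reads, and Hoxd9 was not clearly separated.

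The protocols saw different parts of these genes. Among the 15 members with more than 1 exon block, at least 50 reads in cDNA colon and at least 10 in rRNA-depleted colon, the last block made up a median of 62.02% of the length. It took a median of 95.2% of the reads in cDNA colon and 66.2% in rRNA-depleted colon, and the share was higher by cDNA in 14 of the 15. The same shares over all genes were not computed, so whether this is particular to Hox genes is not known. Hoxd13 had 94.9% of its cDNA reads but 66.2% of its rRNA-depleted reads in the last block. Hoxb13, whose blocks are short, had 54.9% of its cDNA reads there, and Hoxb9 had 99.5% and 98.7%. Whether this place within the transcript bears on the different order of Hoxb13, Hoxb9 and Hoxd13 in the protocols was not tested.

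Of the 15 central genes 14 were present in cDNA small intestine and 15 in cDNA colon, but 8 and 11 in the smaller rRNA-depleted libraries. Here too the share of all genes in each library was not computed. In the Hoxb cluster, Hoxb7 had 29 and 360 reads by cDNA, 1.02 and 11.4 RPKM, a ratio of 11.3 (7.70 to 17.1), and 0 and 13 by the rRNA-depleted protocol. Hoxb6 had 4 and 57 reads by cDNA and 1 and 58 by the rRNA-depleted protocol, ratios of 12.9 and 33.9. Hoxb8, which shares part of an exon block with Hoxb7, had 3 and 34 reads by cDNA, a ratio of 10.3 (3.23 to 52.3), but 4 and 13 by the rRNA-depleted protocol, a ratio of 1.90 whose interval includes 1, and with at most 1 mismatch 0.700 (0.151 to 3.53). From number 6 upwards all Hoxb ratios by cDNA lay above 10, while no Hoxb gene of lower number passed 5.13, but the rRNA-depleted ratios held no such step, and without its densest 200 bases Hoxb6 had a cDNA ratio of 9.37. Hoxb5 had 26 and 147 reads by cDNA, a ratio of 5.13 (3.36 to 8.11), and 12 and 27 by the rRNA-depleted protocol, a ratio of 1.32 (0.645 to 2.85). It was the only member whose intervals by the protocols did not overlap. They did overlap with at most 1 mismatch (2.72 to 8.28 and 0.674 to 6.60) and without its densest 200 bases (2.87 to 7.96 and 0.741 to 3.66). The share of all genes with intervals apart was not computed, and many members had few reads and wide intervals. With 3.11 RPKM Hoxb5 was the highest Hox gene of rRNA-depleted small intestine. Hoxb4, which is known to expand blood stem cells, had 29 and 150 reads by cDNA, a ratio of 4.69 (3.13 to 7.24), and 1 and 13 by the rRNA-depleted protocol, a ratio of 7.61 with a lower bound of 1.14, a call that ended with median-of-ratios size factors and with start points in place of reads.

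Of the central Hoxa genes, Hoxa7 had 19 and 233 reads by cDNA, a ratio of 11.1 (6.96 to 18.8), and 0 and 29 by the rRNA-depleted protocol. Hoxa5, which mice need for normal maturation of the intestine, had 41 and 156 reads by cDNA, 0.972 and 3.35 RPKM, a ratio of 3.45 (2.43 to 4.99). It had 5 and 28 by the rRNA-depleted protocol, a ratio of 3.28 (1.25 to 10.9). These close estimates moved apart with at most 1 mismatch, to 5.93 (3.48 to 10.8) and 2.94 (0.992 to 11.8), and without its densest 200 bases the rRNA-depleted ratio was 5.85 (1.42 to 51.6). Hoxa4 had 18 and 27 reads by cDNA and 4 and 18 by the rRNA-depleted protocol, and its ratios of 1.36 (0.722 to 2.62) and 2.63 (0.867 to 10.7) did not exclude 1. Hoxa6, the member with the largest share of windows like another Hox gene, mostly Hoxb4 and Hoxa7, had 0 and 5 reads by cDNA and 2 and 0 by the rRNA-depleted protocol, too few for a comparison. In the Hoxd cluster, Hoxd8 had 9 and 52 reads by cDNA, a ratio of 5.24 (2.56 to 12.1), and 0 and 9 by the rRNA-depleted protocol. Hoxd4 shares 5 of its 6 exon blocks with Hoxd3, and all its reads lay in shared blocks. It had 10 and 22 reads by cDNA, with a ratio interval of 0.906 to 4.72, and 1 and 16 by the rRNA-depleted protocol, a ratio of 9.36 with a lower bound of 1.45. The 10 small intestine reads of Hoxd4 all had more than 1 color mismatch, and 5 of them began at the same base. With at most 1 mismatch Hoxd4 had 0 and 12 reads by cDNA, with an interval above 1 (lower end 2.53), and 0 and 6 by the rRNA-depleted protocol, with an interval that includes 1 (lower end 0.660). Without its densest 200 bases the cDNA ratio was 9.52 (2.33 to 83.8). The rRNA-depleted call also ended when shared blocks were left out and when each block went to the gene covering most of it.

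The Hoxc cluster went the other way. Its summed level was 2.72 RPKM in cDNA small intestine and 0.960 in cDNA colon, and 2.88 and 1.97 RPKM in the rRNA-depleted libraries, while each of the other clusters was between 10.1 and 19.3 times higher in colon by either protocol. Cluster C made up 27.4% of the summed Hox level in cDNA small intestine and 0.715% in cDNA colon. Hoxc8 (chr15:102820970-102824683), a thoracic patterning gene, was the highest Hox gene of cDNA small intestine with 94 reads and 1.77 RPKM, against 38 reads and 0.647 RPKM in cDNA colon, a ratio of 0.366 (0.245 to 0.540). Hoxc5 had 21 and 3 reads by cDNA, 0.342 and 0.0443 RPKM, and was 7.72 times lower in colon (ratio interval 0.0247 to 0.434), or 16.5 times lower, on 15 and 1 reads, without its densest 200 bases. Hoxc6 had 12 and 2 reads and was 6.62 times lower in colon (ratio interval 0.0164 to 0.679). These were the 3 members whose cDNA interval lay below 1.

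The rRNA-depleted libraries held too few Hoxc reads to test this. Hoxc8 had 3 and 1 reads there, Hoxc5 had 5 and 1, and Hoxc6 had 2 and 2, and none of these intervals excluded 1. Over the whole cluster the ratio of reads was 0.540 with an interval of 0.225 to 1.28 by the rRNA-depleted protocol and 0.346 (0.247 to 0.478) by cDNA. Hoxc4 had 9 and 4 reads by cDNA and 3 and 5 by the rRNA-depleted protocol, and its intervals included 1. The posterior Hoxc genes, numbers 9 to 13, had at most 3 reads each in any library. Together they had 6 reads in cDNA colon, where the posterior genes of clusters A, B and D had 2051, 2551 and 376, and 3 reads in cDNA small intestine, so no posterior difference of that size was seen in Hoxc.

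Some members had many reads in 1 place or many mismatches, above all Hoxb1. Hoxb1, a hindbrain gene and the first of its cluster, had 55 and 57 reads by cDNA, 1.18 and 1.11 RPKM, a ratio of 0.940 (0.637 to 1.39), and 2 and 1 reads by the rRNA-depleted protocol. Of its 112 cDNA reads 0 had at most 1 color mismatch, where 60.1% of the cDNA reads of all genes did, and 97 fell on the minus strand of a single stretch of 200 bases in its last exon block. No window of Hoxb1 or Hoxc8 lay within 3 color mismatches of another Hox gene. The level of Hoxb1 rested on a pile of poorly matching reads in both tissues, and no read with at most 1 mismatch was found for it in any library. For Hoxc8, 64 of 132 cDNA reads fell on the minus strand of a stretch of 200 bases, and 27.3% had at most 1 mismatch. Without that stretch Hoxc8 had 44 reads in cDNA small intestine and 13 in cDNA colon, a ratio of 0.268 (0.132 to 0.506), and with at most 1 mismatch it had 31 and 5 reads, a ratio of 0.147 (0.0447 to 0.382). The lower level of Hoxc8 in colon thus remained by either count. With at most 1 mismatch Hoxc6 had 5 and 1 reads and a ratio of 0.182 (0.00386 to 1.63), close to that of all its reads but with an interval that includes 1. In the cDNA libraries 53.4% of Hoxb13 reads, 56.3% of Hoxa10 reads and 57.6% of Hoxb9 reads had at most 1 mismatch, somewhat below the share of all genes. In cDNA colon the intervals of Hoxb13 (50.9 to 55.9%) and Hoxa10 (53.9 to 58.7%) excluded the 59.96% of all genes, and that of Hoxb9 (55.2 to 61.2%) did not. In cDNA small intestine the share for all Hox reads was 40.9%, so part of the small intestine level rests on reads that match less well, and with at most 1 mismatch the ratio of the summed levels was 18.2 in place of 13.5.

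**Figure D5:**
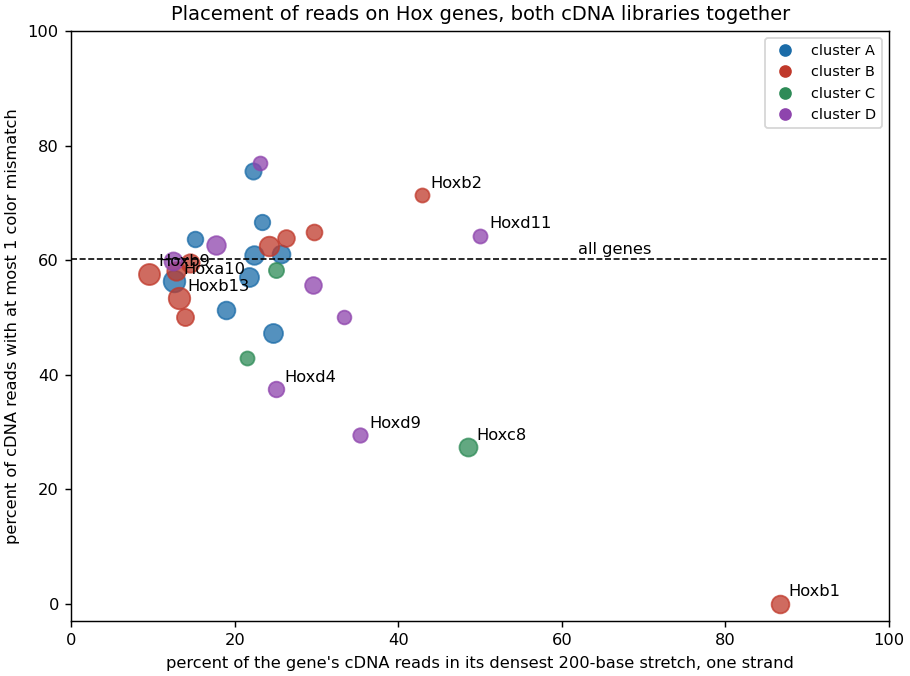
Percent of a gene's reads in its densest stretch of 200 bases on 1 strand (x axis) against the percent of its reads with at most 1 color mismatch (y axis), for the 30 Hox genes with at least 10 reads in a library, both cDNA libraries together. Point size grows with the number of reads and the dashed line marks the 60.1% of all genes. Hoxb1 stands alone at 86.6% and 0%. Hoxd11 has 7 of its 14 reads in 1 stretch but 64.3% of them with at most 1 mismatch, whereas Hoxc8 lies at 48.5% and 27.3%.

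Among the first paralogs, Hoxa3, needed for thymus and parathyroid, had 18 and 103 reads by cDNA, a ratio of 5.19 (3.12 to 9.10) that was 8.31 with each block given to the gene covering most of it, and 4 and 37 by the rRNA-depleted protocol, a ratio of 5.41 (1.95 to 20.9). Hoxa2 had 2 and 31 reads by cDNA and 0 and 27 by the rRNA-depleted protocol, and shares an exon block with Hoxa3. Its rRNA-depleted level was at least 5.27-fold higher in colon. All of its cDNA reads and all but 4 of its rRNA-depleted reads lay in the shared block, so the calls by both protocols ended when shared blocks were left out. Hoxb3 had 14 and 58 reads by cDNA, a ratio of 3.76 (2.07 to 7.29) that was 2.37 (1.11 to 5.51) with at most 1 mismatch, and 8 and 47 by the rRNA-depleted protocol, a ratio of 3.44 (1.61 to 8.42). Hoxd3 had 0 and 12 reads by cDNA and 2 and 8 by the rRNA-depleted protocol, and Hoxb2 had 6 and 8, and 6 and 10. Hoxa3 and Hoxb3 thus lay above 1 by both protocols. The intervals of Hoxb2 included 1, with 0.368 to 4.23 by cDNA and 0.321 to 3.265 by the rRNA-depleted protocol. They also overlapped those of Hoxa3 and Hoxb3, so no difference between these anterior genes was shown.

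The clusters also hold microRNA genes, and the seed of a microRNA, its bases 2 to 8, pairs with target transcripts. Mir196b, between Hoxa9 and Hoxa10, had 0 and 15 reads on its hairpin block by cDNA and 0 and 1 by the rRNA-depleted protocol. Such reads come from longer transcripts over the hairpin and do not measure the mature microRNA. The mature form from RefSeq (GRCm38.p6) is shown with its seed in capitals, and below it the places in Hoxc8 that match the seed on the coding strand of mm9, with the match in capitals, because Hoxc8 holds more of them than any other member.

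mmu-miR-196b-5p: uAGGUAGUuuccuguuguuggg
Hoxc8, chr15:102823407-102823428: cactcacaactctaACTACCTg
Hoxc8, chr15:102824164-102824185: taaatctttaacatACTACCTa
Hoxc8, chr15:102824302-102824323: cagcgtattttatcACTACCTa

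The letters ACTACCT, searched on the coding strand only, occurred 11 times in 9 Hox genes, 0.142 per 1000 bases of exon against 0.0596 per 1000 bases over all exon blocks. The match of the miR-10 seed, ACAGGGT, occurred 8 times in 8 Hox genes, 0.103 against 0.0619 per 1000 bases. Mir10a, Mir10b and Mir196a-2 had no read in any library and Mir196a-1 had 0 and 1 reads by cDNA and 0 and 4 by the rRNA-depleted protocol. A match is only a string of letters, and its bearing on the level of Hoxc8 was not tested.

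Some of the other transcripts in or beside the clusters were read mainly in colon. Of the 15 genes of this list that could be named, 11 had a read by cDNA, of which 6 lay above 1 by the interval rule and 2 below, beside 46.2% and 20.9% of genes tested. By the rRNA-depleted protocol 5 of 12 lay above and 0 below, beside 33.7% and 17%. The transcript 2700086A05Rik on the plus strand of the Hoxa cluster (chr6:52151123-52163596), named here after its values had been seen, had 0 and 68 reads by cDNA and 0 and 10 by the rRNA-depleted protocol. Ttll6, a tubulin ligase gene beyond Hoxb13, had 3 and 872 reads by cDNA, a ratio of 264 (lower bound 89.9), and 0 and 117 by the rRNA-depleted protocol. Evx1, a homeobox gene beyond Hoxa13, had 1 and 5, and 0 and 11. Not all genes beyond the posterior ends were higher in colon. Lnp, beyond Hoxd13, had a cDNA ratio of 0.83 (0.716 to 0.965) and a rRNA-depleted ratio of 2.05 (1.46 to 2.93). Evx2 had 0 and 0 reads by cDNA and 0 and 1 by the rRNA-depleted protocol, and Calcoco2 had 2 and 1, and 0 and 1. At the opposite, anterior ends, Skap2 beside the Hoxa cluster had a cDNA ratio of 1.08 (1.01 to 1.16), Mtx2 near Hoxd1 had 1.40 (1.21 to 1.62), and Skap1 near Hoxb1 was lower in colon by cDNA with 0.337 (0.237 to 0.470), while its 1 and 6 rRNA-depleted reads gave 3.51 (0.426 to 161.5). By the 3-fold rule 3 were called higher in colon by each protocol, out of 10 present by cDNA and 9 by the rRNA-depleted one, beside 3.21% and 6.6% of genes. These were Hoxa11as and Ttll6 by both, Mir196b by cDNA and Mir196a-1 by the rRNA-depleted protocol, whose 0 and 4 reads gave an interval that includes 1. Hotair, Hottip and further noncoding transcripts of the clusters were not analysed here.

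Hox proteins bind DNA together with TALE homeodomain proteins of the Pbx, Meis and Pknox families. Of 9 such genes, 9 were present in both cDNA libraries, 0 were called 3-fold different by cDNA and 1, Meis3, by the rRNA-depleted protocol, where it was higher in colon, beside 3.21% and 6.6% of genes called higher. By the interval rule 5 of 9 were higher in colon and 0 lower by cDNA, where 46.2% of genes tested were higher, and 4 and 0 by the rRNA-depleted protocol, where 33.7% were. Meis3 had 22 and 135 reads by cDNA, a ratio of 5.56 (3.53 to 9.17), and 5 and 47 by the rRNA-depleted protocol, a ratio of 5.50 (2.20 to 17.7). Meis1 had cDNA and rRNA-depleted ratios of 1.92 (1.61 to 2.31) and 4.14 (2.25 to 8.34). The summed level of the cofactors was 1.80 times higher in colon by either protocol.

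Upstream of Hox genes stand the caudal factors Cdx1, Cdx2 and Cdx4 and the retinoic acid pathway. Of 10 genes on this list, 7 were present in a library of each protocol, and of these 2 were called 3-fold higher in colon and 0 lower by each, beside 3.21% and 6.6% of genes called higher. By the interval rule 4 of the 8 with a read were higher and 2 lower by cDNA, beside 46.2% and 20.9% of genes tested, and 3 and 1 by the rRNA-depleted protocol, beside 33.7% and 17%, which is near the share of all genes. Cdx1 had 519 and 2370 reads by cDNA, a ratio of 4.14 (3.76 to 4.56), and 201 and 1696 by the rRNA-depleted protocol, a ratio of 4.94 (4.26 to 5.74). Cdx2 was 3.68 times higher in colon by cDNA (3.37 to 4.02), with 628 and 2550 reads, but had 345 and 293 reads by the rRNA-depleted protocol, a ratio of 0.497 (0.424 to 0.582), the opposite direction. Rarg, a retinoic acid receptor, had 1 and 15 reads by cDNA and 5 and 89 by the rRNA-depleted protocol, a ratio of 10.4 (4.30 to 32.9). Rarb, another receptor gene, was higher in colon by cDNA with 26 and 63 reads and a ratio of 2.20 (1.37 to 3.61). Lower in colon by cDNA were the retinoic acid synthesis gene Aldh1a2 with a ratio of 0.501 (0.372 to 0.670) and the receptor gene Rara with 0.513 (0.317 to 0.818), while their rRNA-depleted ratios were 2.02 (1.01 to 4.39) and 1.11 (0.813 to 1.52). Cdx4 and the retinoic acid hydroxylase Cyp26a1 had no read in any library. Of 19 Polycomb, Trithorax and demethylase genes, which keep Hox clusters silent or active, 19 were present in all libraries and 0 were called 3-fold different by cDNA, while 1 was called higher in small intestine by the rRNA-depleted protocol, where 3.7% of genes were. By the interval rule 6 of them were higher in colon and 7 lower by cDNA, and 7 and 5 by the rRNA-depleted protocol, beside 46.2% and 20.9%, and 33.7% and 17%, of genes tested. Their summed level was 1.02 and 0.960 times that of small intestine in colon.

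Markers of some cell types, among them adipocytes, smooth muscle and enteric neurons, moved with the tissues as well. The summed level of 8 smooth muscle markers was 426.3 RPKM in cDNA small intestine and 1681 in cDNA colon, a ratio of 3.94, and 298.3 and 2692 RPKM in the rRNA-depleted libraries, a ratio of 9.02, with 8 of 8 markers above 1 by both protocols, beside 24.4% of genes, and 0 markers at 0 reads. The 6 enteric neuron markers had ratios of 2.77 and 6.42, the 4 enteric glia markers 2.17 and 2.82, the 6 fibroblast markers 1.13 and 3.71 and the 8 epithelial markers 0.828 and 1.15. Adipocyte markers (4 genes) had ratios of 7.90 and 8.75, leukocyte markers (5 genes) 0.905 and 1.46, and endothelial markers (3 genes) 1.07 and 1.70. The leukocyte sum hides members that differed, since Ptprc with 0.240 and Cd3e with 0.0931 were called 3-fold lower in colon by cDNA while Lyz2 had 1.22. The epithelial and fibroblast sums hide such members too. By cDNA and the rRNA-depleted protocol Vil1 had 0.273 and 0.298 and Krt20 0.333 and 0.178, but Krt8 had 1.55 and 2.20 and Krt18 2.275 and 2.73. Among fibroblast markers the rRNA-depleted ratio was 6.44 for Dcn and 6.77 for Lum but 1.01 for Col1a1. The part of these cell layers in the Hox levels was not tested.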

How the data were processed

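Per the methods of the study, RNA of whole tissue was sequenced on SOLiD. Per the deposited records, the reads had been matched as 35 colors to RefSeq exons and exon-exon junctions of mm9. Up to 3 color mismatches were allowed and unique placements kept. The methods of the study describe matching to the mm9 genome instead. What the authors deposited is, for each read, its place, its strand and its number of mismatches, unnormalized. Here their reads were counted per exon block (numbers of reads and start points equalled those in the authors' reports), with 3 bases of tolerance at block ends, and blocks joined by the authors' junctions were named as one set after GENCODE M1 on NCBIM37. This naming was adopted after seeing the data, and giving each block to the gene covering most of it, as first planned, is kept as an alternative. For RPKM, the total of uniquely placed reads of a library was scaled to 1000000. Ratios have exact conditional binomial intervals, levels exact Poisson intervals and shares Wilson intervals, all at 95%. A library with 0 reads was set to 3 reads for a lower bound.

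Members and lists (TALE cofactors, upstream regulators, chromatin regulators, genes in or beside the clusters, and cell type markers) were chosen with earlier results of these data known. Members with at least 10 reads in 1 library were described singly. Values of some genes are not reported here. Python 3.11.15, NumPy 2.4.6, pandas 2.3.3, SciPy 1.17.1 and matplotlib 3.10.9 were used. Alternatives were other scaling, at most 1 color mismatch, start points in place of reads, shared blocks left out, sense reads only, junction reads added, another penalty and other thresholds for presence, and, added after seeing the data, the densest 200 bases of each member left out.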

Additional observations from a re-analysis of the deposited data

Results flagged for a closer look

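Reads outside the sense counts of the Hox genes stood out in colon. On Hoxa11, 37 of 62 reads in rRNA-depleted colon were antisense, and on Hoxa10 17 of 132 were, where 1.53% of the reads of all genes were antisense. Neighbouring transcripts that are no members of the set also had reads in cDNA colon and none in cDNA small intestine, with 718 for Hoxa11as, 68 for 2700086A05Rik and 15 for the block of Mir196b.

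The protocols differed for single genes, and this difference was not tested beyond its counting intervals. The level of Hoxb2 in colon was 0.975 times that in small intestine by the rRNA-depleted protocol and 1.21 times by cDNA, on opposite sides of 1, although both intervals include 1. The rRNA-depleted ratio of Hoxb5 was 1.32 (0.645 to 2.85), apart from 5.13 (3.36 to 8.11) by cDNA, but these intervals overlapped with at most 1 mismatch and without the densest 200 bases of Hoxb5. Cdx2 had 0.497 by the rRNA-depleted protocol and 3.68 by cDNA.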

How the results depend on the processing

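No paired analysis was run, and the labels carry no replicate numbers. A fit of tissue with protocol as a block, which would leave 1 residual degree of freedom, was not run. Counting error is the only error known, and small intestine, with 450 and 82 Hox reads, limits the ratios. Counts of genes kept within 1.5 times their value in 96 of 102 recomputed counts. The exceptions were 7 members in rRNA-depleted small intestine present with at least 5 reads, and members called 3-fold higher in colon, of which there were 12 by cDNA with start points in place of reads and, with a penalty of 0.1 RPKM, 19 by cDNA and 20 by the rRNA-depleted protocol. With that penalty 1 member was called higher in small intestine by the rRNA-depleted protocol, and with median-of-ratios size factors 1 member had a rRNA-depleted interval below 1. The shares of all genes under these alternatives were not computed.

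Colon to small intestine ratios of summed levels never changed side of 1. With median-of-ratios size factors the cDNA ratio was 1.81 for paralogs 1-3, 3.19 for paralogs 4-8, 12.9 for cluster A, 14.6 for cluster B and 10.2 for all members, where the rRNA-depleted one was 7.39. With at most 1 mismatch the cDNA ratios were 3.98 for paralogs 1-3, 5.32 for paralogs 4-8, 463.5 for paralogs 9-13, 26.9 for cluster B, 0.204 for cluster C, 47.2 for cluster D and 18.2 for all members, and the rRNA-depleted ratio was 4.93 for paralogs 4-8. With start points the cDNA ratio of cluster B was 16.5, and the rRNA-depleted ratios were 22.2 for paralogs 9-13, 6.69 for cluster B and 7.21 for all members. Without the densest 200 bases the cDNA ratios were 4.26 for paralogs 1-3, 28.2 for cluster B, 33.7 for cluster D and 17.9 for all members. The cause of these shifts was not tested. The rRNA-depleted ratio of cluster A was 16.1 without the densest 200 bases and that of cluster D 25.8 with at most 1 mismatch. Of 442 recomputed ratios of single genes, 413 kept their side of the interval rule, 24 no longer excluded 1 and 5 newly did, while 61 moved by over 1.5 times, 29 of them with at most 1 mismatch. A further 3 calls were lost with too few reads left for a ratio. The losses by the rRNA-depleted protocol were in Hoxa2, Hoxa5, Hoxb4, Hoxd4, Hoxd8, Hoxd11 and Hoxd12, and those by cDNA in Hoxa2, Hoxc6, Hoxd9 and Hoxd11.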
